A study of Mus musculus with 15 samples.

Results

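The libraries were divided by how much Drd1 messenger RNA they held. Drd1 encodes the D1 dopamine receptor, and its level is given in CPM, the count scaled by the library's total count. The members were chosen by this level alone. A library with at least 50 CPM was called Drd1-high and one below 50 CPM Drd1-low. Of 15 libraries, 6 were Drd1-high and 9 Drd1-low. All 15 came from wild-type C57BL/6J mice killed 3 h after a single session of magnetic brain stimulation, with 5 animals in each of 3 groups. One group had bursts at theta rhythm with pauses (iTBS, intermittent theta-burst), another had them without pauses (cTBS, continuous), and the last had sham stimulation. The tissue label says only brain, while the titles give the area as somatosensory and the design as sensorimotor cortex. The labels give no age and do not say that animals were pooled. The question was which other transcripts went with Drd1 from one cortical dissection to the next, once the stimulation group was allowed for.

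The striatum lies beneath the cortex, and nearly all of its neurons are inhibitory spiny projection neurons. Those of the direct pathway carry the D1 receptor and make substance P and dynorphin. Those of the indirect pathway carry the D2 dopamine receptor and the adenosine receptor Adora2a and make enkephalin. Both kinds share a signalling chain, from D1 or Adora2a through the G protein Golf and adenylyl cyclase 5 to cyclic AMP. Drd1 is also expressed by some cortical neurons, so it is not a marker of striatum alone. In bulk tissue, fewer cells of a type and less RNA per cell cannot be told apart.

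Drd1 was at 31.7, 75.0, 27.6, 25.2 and 40.1 CPM in iTBS libraries 1 to 5. It was at 69.9, 73.7, 24.6, 47.6 and 65.1 CPM in cTBS libraries 1 to 5. It was at 54.0, 68.6, 16.9, 19.3 and 24.7 CPM in sham libraries 1 to 5. The Drd1-high libraries were thus iTBS 2, cTBS 1, 2 and 5, and sham 1 and 2, so that each stimulation group held both kinds. The mean was 67.7 ± 7.59 CPM (SD, n = 6) in Drd1-high and 28.6 ± 9.82 CPM (SD, n = 9) in Drd1-low libraries. The library just inside the threshold was sham 1 at 54.0 CPM, and the one just outside was cTBS 4 at 47.6 CPM. These values made the split and are given without a test.

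Promoters of 3 of the genes that went with Drd1 are given here, picked to show a different motif each. They are the 250 bases before the start site from RefSeq on GRCm38.p6, 5′ to 3′ on the gene's strand. Gpr6, an orphan receptor of indirect-pathway neurons, has a full cyclic AMP response element (TGACGTCA, which reads the same on both strands) that begins 78 bases before the start. Tac1, the substance P precursor, has 2 copies of the shorter core of that element (TGACG, or CGTCA on the other strand). Rarb, a retinoic acid receptor and striatal transcription factor, has a direct repeat of the kind that retinoic acid receptors bind, searched as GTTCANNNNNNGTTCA and its reverse complement TGAACNNNNNNTGAAC. Capitals mark these matches.
Gpr6, chr10:41072291-41072540, minus strand: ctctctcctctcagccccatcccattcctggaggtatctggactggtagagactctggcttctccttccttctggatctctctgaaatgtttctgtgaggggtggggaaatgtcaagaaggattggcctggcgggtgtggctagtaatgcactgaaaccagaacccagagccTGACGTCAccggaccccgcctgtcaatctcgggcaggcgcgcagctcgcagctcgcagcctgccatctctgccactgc
Tac1, chr6:7554811-7555060, plus strand: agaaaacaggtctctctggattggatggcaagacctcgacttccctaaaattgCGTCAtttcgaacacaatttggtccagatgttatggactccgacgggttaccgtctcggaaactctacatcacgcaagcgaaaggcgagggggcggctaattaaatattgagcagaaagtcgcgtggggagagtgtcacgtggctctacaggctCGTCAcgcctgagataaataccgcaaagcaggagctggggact
Rarb, chr14:16575477-16575726, minus strand: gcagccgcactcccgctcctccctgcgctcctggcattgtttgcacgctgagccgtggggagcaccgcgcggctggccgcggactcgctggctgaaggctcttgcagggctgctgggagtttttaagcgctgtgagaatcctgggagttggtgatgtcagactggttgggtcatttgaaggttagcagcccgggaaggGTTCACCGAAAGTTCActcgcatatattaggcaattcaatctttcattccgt

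The full element was in 1.55% of all 32851 promoters of this length in the table, the short core in 17.8% and the retinoic acid repeat in 0.0670%. These promoters belong to 27025 genes, whether tested here or not, so they are not matched in expression to the called genes. Every full element also holds the short core. Of 295 promoters of genes higher in Drd1-high libraries, 1 held the full element (0.339%), 54 the short core (18.3%) and 1 the retinoic acid repeat (0.339%). The full element and the repeat among these were those of Gpr6 and Rarb shown above. Those genes were picked to show these motifs, so these matches are not separate support. The repeat was searched in 1 spelling only, the one that Rarb holds. Of 334 promoters of genes lower in these libraries, 12 held the full element (3.59%), 90 the short core (26.9%) and none the repeat. Some genes have several promoters in the table. A match describes the letters and is not evidence of a bound site.

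Drd1-high and Drd1-low libraries were compared for every gene with edgeR's quasi-likelihood test, with stimulation group as a covariate and Benjamini-Hochberg adjustment. Of 22997 genes other than Drd1, 722 passed at an adjusted p of 0.05, which is 3.14%. In Drd1-high libraries 316 genes were higher (1.37% of those tested) and 406 were lower (1.77%). The higher genes moved further. Their median fold was 1.74, the largest was 7.36, and 128 differed at least 2-fold, whereas the lower genes had a median fold of 1.25 and 12 of them differed at least 2-fold. A call here says that a transcript went with Drd1 over these libraries, since the groups were made from a measured transcript.

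**Figure D1:**
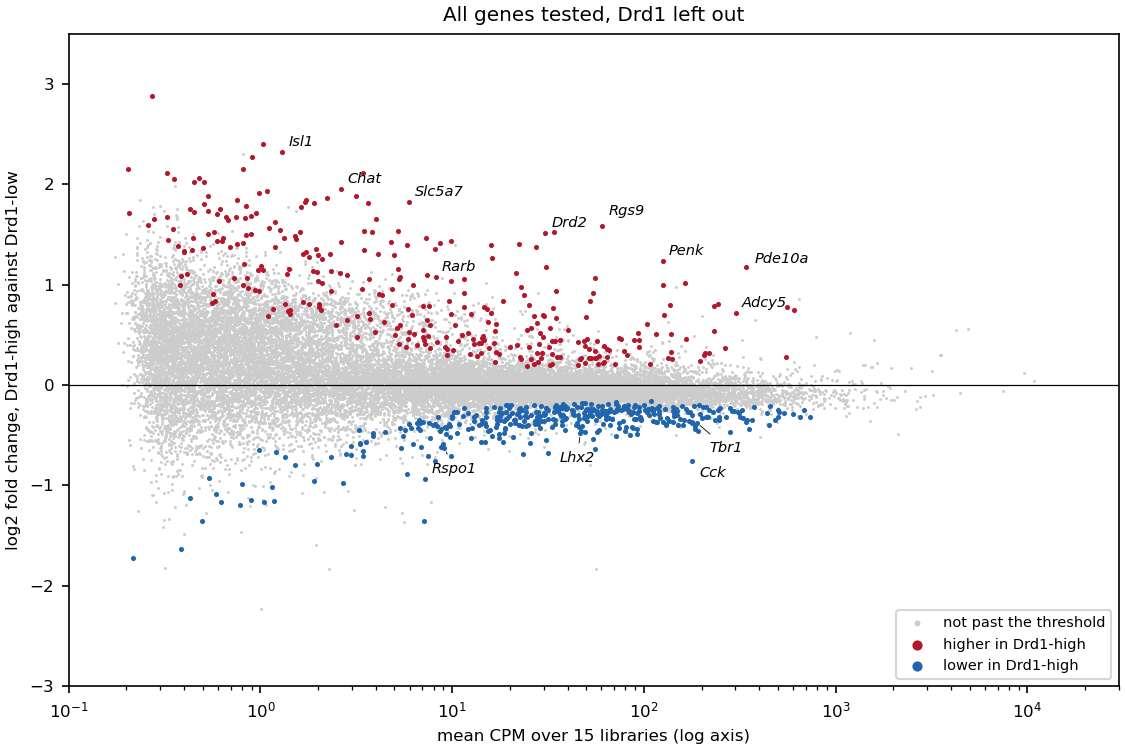
Each point is a gene, with its mean level over 15 libraries in CPM on a log axis against its log2 fold change, Drd1-high against Drd1-low. Red points are the 316 genes called higher and blue points the 406 called lower. The higher genes reach further from 0, up to 7.36-fold.

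The calls leaned on 2 libraries. Without iTBS 2, the one Drd1-high library of its group, 95 genes were higher and 64 lower, and without sham 2 the numbers were 138 and 86. Without both, 2 were higher and 0 lower by edgeR (smallest adjusted p = 0.0372, with 1196 higher and 1147 lower genes at an unadjusted p under 0.05); the 316 and 406 genes then had median log2 changes of 0.70 and -0.29. Without sham 3, the library lowest in Drd1, 513 were higher and 839 lower. In every fit that left out a single library, 88 of the higher and 54 of the lower genes were called.

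Indirect-pathway genes stood high in Drd1-high libraries. Of 9 tested genes typical of these neurons, 5 were higher and none was lower, with a median log2 difference of 1.24 against 0.03 over all genes. Drd2, the D2 receptor, ran from 39.8 to 60.3 CPM (median 49.6) in Drd1-high and from 6.87 to 37.7 CPM (median 14.7) in Drd1-low libraries. The groups did not overlap, and Drd2 was 2.86-fold higher (log2 1.52 ± 0.25 SE, edgeR adjusted p = 0.00507). Adora2a, the adenosine receptor coupled to Golf, ran from 38.2 to 66.3 CPM (median 55.0) against 6.06 to 43.9 CPM (median 14). Only cTBS 4 among the Drd1-low libraries reached the lowest Drd1-high value, and the difference was 2.87-fold (log2 1.52 ± 0.27 SE, edgeR adjusted p = 0.00696). Penk, which encodes the enkephalin precursor, had a median of 205 CPM against 66.9 CPM and was 2.36-fold higher, and cTBS 4 stood above the lowest Drd1-high library, sham 1. Gpr6, whose promoter is shown above, ran from 9.30 to 16.2 CPM against 2.33 to 8.89 CPM, without overlap, a 2.55-fold difference. Upb1 was the fifth. Sp9, Grik3, Ptprm and Plxdc1 did not pass the test.

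Genes of the direct pathway, the pathway that Drd1 itself marks, were higher in 5 of 11 cases and lower in none, with a median log2 difference of 0.36. Tac1 ran from 24.4 to 46.4 CPM (median 31.3) in Drd1-high and from 9.14 to 23.6 CPM (median 13.4) in Drd1-low libraries. The groups did not overlap and the difference was 2.17-fold (log2 1.12 ± 0.16 SE, edgeR adjusted p = 0.00173). Isl1, a transcription factor of direct-pathway and cholinergic neurons, was low throughout, at 1.46 to 3.67 CPM against 0.0541 to 1.06 CPM, and had one of the larger differences at 4.99-fold. Slc35d3 was 2.68-fold higher without overlap. Ebf1 was the fourth gene to rise. Pdyn, the dynorphin precursor, had medians of 30.1 and 19.0 CPM and a smaller difference of 1.46-fold (edgeR adjusted p = 0.0293). Its call was lost without any 1 of iTBS 2, cTBS 2, sham 2 or cTBS 3 (adjusted p = 0.115, 0.0546, 0.0997 and 0.0736).

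**Figure D2:**
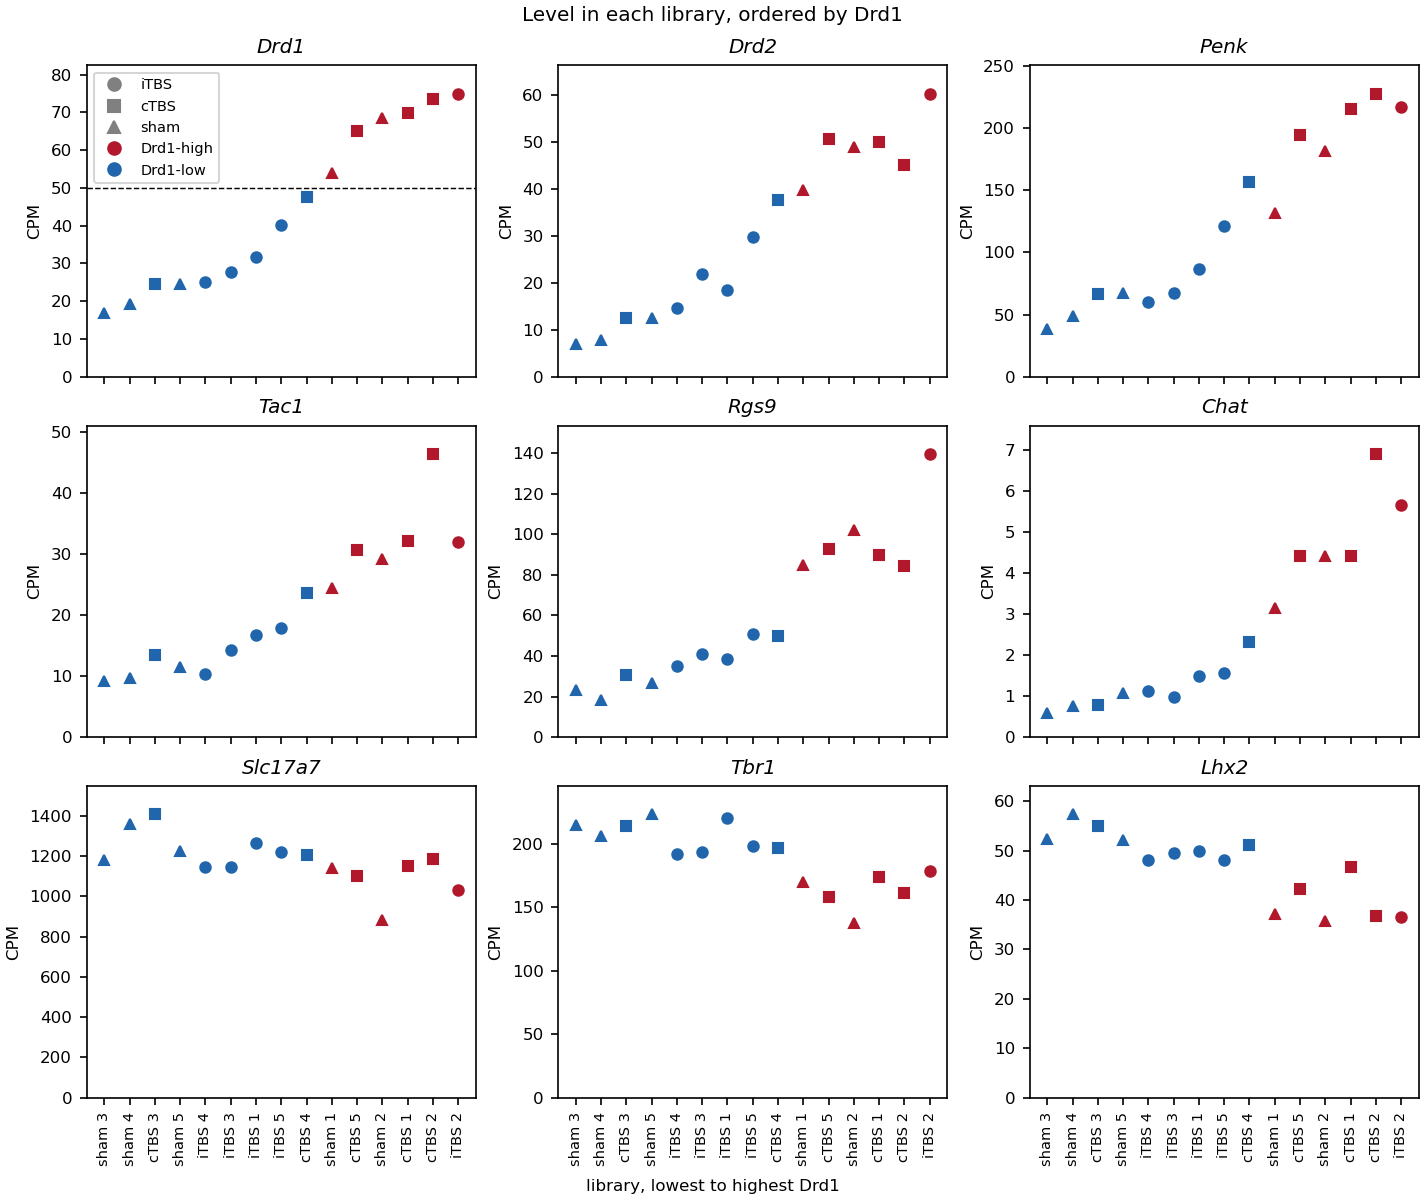
Levels in CPM of 9 genes in each of the 15 libraries, ordered from the lowest to the highest Drd1, with the threshold of 50 CPM dashed in the Drd1 panel. Red points are Drd1-high and blue points Drd1-low, and the marker gives the stimulation group. Drd2, Penk, Tac1, Rgs9 and Chat climb along the order while Tbr1 and Lhx2 are lower in all 6 Drd1-high libraries.

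Genes shared by the spiny neurons of both pathways gave the most calls of any list by number. Of 35 genes, 24 were higher and none lower, with a median log2 difference of 0.68. The number higher was 22 without sham 2, 17 without iTBS 2 and 2 without both. The 35 genes summed to between 5279 and 6586 CPM in Drd1-high and between 3363 and 5043 CPM in Drd1-low libraries, so the sums did not overlap. Sums of the direct-pathway (896 to 942 against 890 to 962 CPM) and indirect-pathway lists (480 to 620 against 298 to 523 CPM) overlapped. Those of striatal transcription factors did too (1554 to 1838 against 1547 to 1799 CPM). Cholinergic sums did not overlap (75.6 to 130 against 49.8 to 68.8 CPM). Rgs9, which shortens dopamine receptor signalling by speeding the G protein's return to rest, had the smallest p of all genes. It ran from 84.5 to 140 CPM (median 91.3) against 18.4 to 50.9 CPM (median 34.9), with no overlap and a 3.01-fold difference (log2 1.59 ± 0.15 SE, edgeR adjusted p = 0.000131). Rasgrp2, a Rap activator, was 2.26-fold higher with the same adjusted p.

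Members of the cyclic AMP chain rose by different amounts. Gnal, the Golf alpha subunit, was 1.45-fold higher at medians of 287 and 192 CPM. Adcy5, adenylyl cyclase 5, ran from 326 to 453 CPM against 172 to 302 CPM, did not overlap and was 1.65-fold higher (edgeR adjusted p = 0.00136). Pde10a, the phosphodiesterase that breaks down cyclic nucleotides in both kinds of spiny neuron, ran from 439 to 647 CPM against 151 to 353 CPM and was 2.26-fold higher. Its groups did not overlap either. Ppp1r1b, which encodes the dopamine-regulated phosphatase inhibitor DARPP-32, was 1.74-fold higher at medians of 185 and 99.6 CPM. Its call was lost without iTBS 2 (adjusted p = 0.0582).

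In the wider set of dopamine, adenosine and cyclic AMP signalling genes, 15 of 43 were higher and 1 was lower, with a median log2 difference of 0.11. The lower one was Adora1, the A1 adenosine receptor, at a log2 difference of -0.21. Of the other dopamine receptors, Drd5 had medians of 1.08 and 0.816 CPM (edgeR adjusted p = 0.386) and Drd4 medians of 0.224 and 0.338 CPM (adjusted p = 0.719). Drd3, the D3 receptor of the ventral striatum, was too low to enter the test. It was at 2.03 CPM in cTBS 2, 0.746 CPM in iTBS 2, 0.736 CPM in cTBS 5, 0.395 CPM in cTBS 1, 0.279 CPM in sham 2 and 0.0366 CPM in sham 1. All but sham 1 stood above the Drd1-low libraries, which ran from 0.0264 to 0.195 CPM. Of 22 opioid and neuropeptide genes, 8 were higher and 4 lower. The 4 lower were Npy, Cck, Sstr2 and the receptor Cckbr, which cortical neurons express.

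Among striatal transcription factors 9 of 21 were higher and none lower, with a median log2 difference of 0.34. Rarb ran from 8.31 to 16.0 CPM (median 11.8) against 3.41 to 7.65 CPM (median 5.48), did not overlap and was 2.10-fold higher (log2 1.07 ± 0.12 SE, edgeR adjusted p = 0.000504). Dlx6, a homeobox factor of forebrain inhibitory neurons, was 1.86-fold higher without overlap. Six3, Meis1, Meis2, Foxo1 and Foxp2 also rose. Foxp2 is a gene of cortical layer 6 as well, and its call was lost without iTBS 2 (adjusted p = 0.0676). Foxp1 and Bcl11b, which cortex and striatum both express, did not pass the test. Pbx3, outside the list but among the 12 higher genes with the smallest p, was 1.89-fold higher.

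Cholinergic neurons gave the largest median of all 35 lists. Of 10 genes, 7 were higher, none was lower, and the median log2 difference was 1.43. Chat, which makes acetylcholine, ran from 3.15 to 6.89 CPM (median 4.42) against 0.595 to 2.31 CPM (median 1.08). The groups did not overlap and Chat was 3.87-fold higher (log2 1.95 ± 0.23 SE, edgeR adjusted p = 0.000504). Slc5a7, the choline transporter, ran from 6.70 to 15.3 CPM against 1.35 to 5.73 CPM and was 3.53-fold higher. Slc18a3, Ecel1, Tacr1 and Lhx8 were also called. The call of Lhx8 was lost without iTBS 2 or sham 2 (adjusted p = 0.0733 and 0.0526). Lhx8 is shared with basal forebrain neurons, so the list does not place these transcripts in one structure. Of 13 genes of other striatal interneurons, Tacr3 and Nkx2-1 were higher and Npy and Cck lower, and Pvalb, Sst, Nos1 and Th did not pass the test. Without sham 2, Tacr3 and Nkx2-1 were lost (adjusted p = 0.0581 and 0.0891).

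Some genes listed for neighbouring regions also moved with Drd1, and unevenly. Of 14 genes of the ventral striatum and olfactory tubercle, 5 were higher, namely Dlk1, Nts, Arhgap36, Tacr1 and Zcchc12. Of 14 genes of globus pallidus and septum, 3 were higher, namely Nkx2-1, Lhx8 and Gbx1. No member of either list was called lower, and their median log2 differences were 0.17 and 0.34. Of the ventral genes 12 lay above 0 and 2 below, and of the pallidal and septal genes 8 above and 6 below. Mean levels over all 15 libraries were low, at 0.477 CPM for Nkx2-1, 0.812 CPM for Lhx8 and 0.504 CPM for Gbx1. Tacr1 and Lhx8 are also in the cholinergic list and Nkx2-1 in that of other striatal interneurons. Their calls are the ones given above and do not place the transcripts in a neighbouring region. Dlk1 was at 13.9 CPM in cTBS 2 and 10.5 CPM in sham 2 and between 1.46 and 4.31 CPM in the other 4 Drd1-high libraries, against 0.520 to 1.96 CPM in Drd1-low libraries. Nts, the neurotensin precursor, was likewise highest in cTBS 2 at 6.32 CPM and next in sham 2 at 3.74 CPM, and ran from 0.325 to 1.49 CPM in Drd1-low libraries. The ventral list kept 1 called gene without iTBS 2 and 1 without sham 2, and the pallidal and septal list kept 2 and 1. Dlk1 was lost without any 1 of iTBS 2, cTBS 2, sham 2, cTBS 3, cTBS 4 or sham 4 (adjusted p = 0.0539 to 0.162), and Nts without iTBS 2 or sham 2 (0.0900 and 0.0883).

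**Figure D3:**
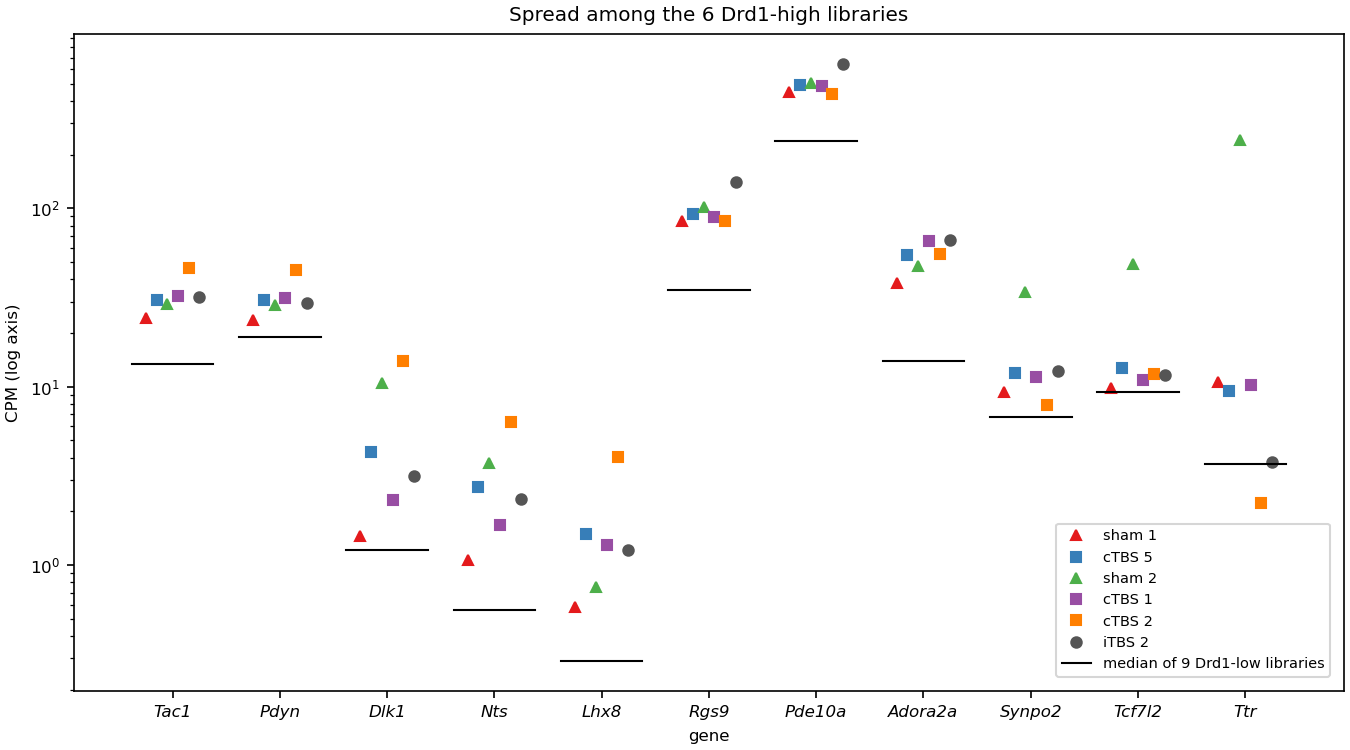
Levels in CPM on a log axis of 11 genes in the 6 Drd1-high libraries, with a bar at the median of the 9 Drd1-low libraries. cTBS 2 is highest for Tac1, Pdyn, Dlk1, Nts and Lhx8, iTBS 2 for Rgs9, Pde10a and Adora2a, and sham 2 for Synpo2, Tcf7l2 and Ttr.

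The Drd1-high libraries were therefore not alike. cTBS 2 held the most Tac1 (46.4 CPM), Pdyn (44.9 CPM), Dlk1 and Nts, whereas iTBS 2 held the most Rgs9 (140 CPM) and Pde10a (647 CPM). In cTBS 5 the 14 hippocampal genes summed to 636 CPM, against 439 to 535 CPM in all other libraries of the series. Sham 2 held thalamic transcripts beside the striatal ones. Synpo2, a gene of thalamic neurons, was at 34.0 CPM there and between 7.92 and 12.2 CPM in the other Drd1-high libraries, and the thalamic factor Tcf7l2 was at 49.0 CPM there and at no more than 12.7 CPM elsewhere among them. The 14 thalamic genes summed to 962 CPM in sham 2 and to between 559 and 609 CPM in Drd1-low libraries. Their median log2 difference was 0.38 with sham 2 and 0.11 without it, and Synpo2 was the only gene called. Its call was lost in 10 of the 15 fits without a library, with adjusted p from 0.0526 to 0.107 in those. The part of thalamic tissue in the striatal differences was not tested beyond the counts without sham 2 given above.

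Cortical excitatory neuron genes went the other way. All 22 lay below 0, 13 were lower and none higher, and the median log2 difference was -0.32. The number lower was 7 without sham 2, 6 without iTBS 2 and 0 without both. Summed over the list, levels ran from 6395 to 7520 CPM in Drd1-high and from 7913 to 8948 CPM in Drd1-low libraries, again without overlap. Every library thus held abundant RNA of the listed genes. The titles name cortex, and how much of each library's RNA came from cortex was not tested. Tbr1, a factor of deep-layer neurons, ran from 138 to 179 CPM (median 166) against 192 to 223 CPM (median 206). The groups did not overlap and Tbr1 fell by 0.38 ± 0.07 (SE) on the log2 scale (edgeR adjusted p = 0.00797), which is 1.30-fold. Slc17a7, the main vesicular glutamate transporter of cortex, had medians of 1121 and 1219 CPM and missed the threshold at a log2 difference of -0.28 (edgeR adjusted p = 0.0654). Cck, the cholecystokinin precursor, was 1.69-fold lower, at medians of 131 and 210 CPM.

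The layers gave different counts. Of 10 layer 4 genes 5 were lower and 1, Lmo3, was higher, with a median log2 difference of -0.27. Rspo1 was 1.55-fold lower and Tmem215 1.31-fold lower, both without overlap between the groups. Of 12 upper-layer genes 3 were lower, Lhx2 and Pdzrn3 among them, and none higher, with a median of -0.18. Lhx2, a cortical patterning factor, fell by 0.48 ± 0.07 (SE) on the log2 scale without overlap (edgeR adjusted p = 0.00212). Pdzrn3 was lost without any 1 of iTBS 2, cTBS 2, sham 2, cTBS 4, cTBS 5 or sham 5 (adjusted p = 0.0557 to 0.0843). Of 15 layer 5 genes Fezf2 and Hs3st2 were lower, and Hs3st2 was lost without iTBS 2 (adjusted p = 0.0559). Of 17 layer 6 and subplate genes none was lower and 2, Foxp2 and Syt6, were higher, and the median was 0.01. Syt6 was lost without iTBS 2, sham 2 or cTBS 3 (adjusted p = 0.141, 0.102 and 0.0691). Over all genes edgeR called 1.37% higher and 1.77% lower. In either direction DESeq2 called 7 upper-layer, 9 layer 4, 4 layer 5 and 4 layer 6 and subplate genes. By limma-voom these numbers were 7, 9, 7 and 3. Both tools also called more genes in total than edgeR. Whether the layers differ from each other was not tested. Among 20 cortical interneuron genes Lamp5, Npy and Cck were lower and Tac1 was higher by edgeR, while DESeq2 and limma-voom each called 11 of the 20.

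**Figure D4:**
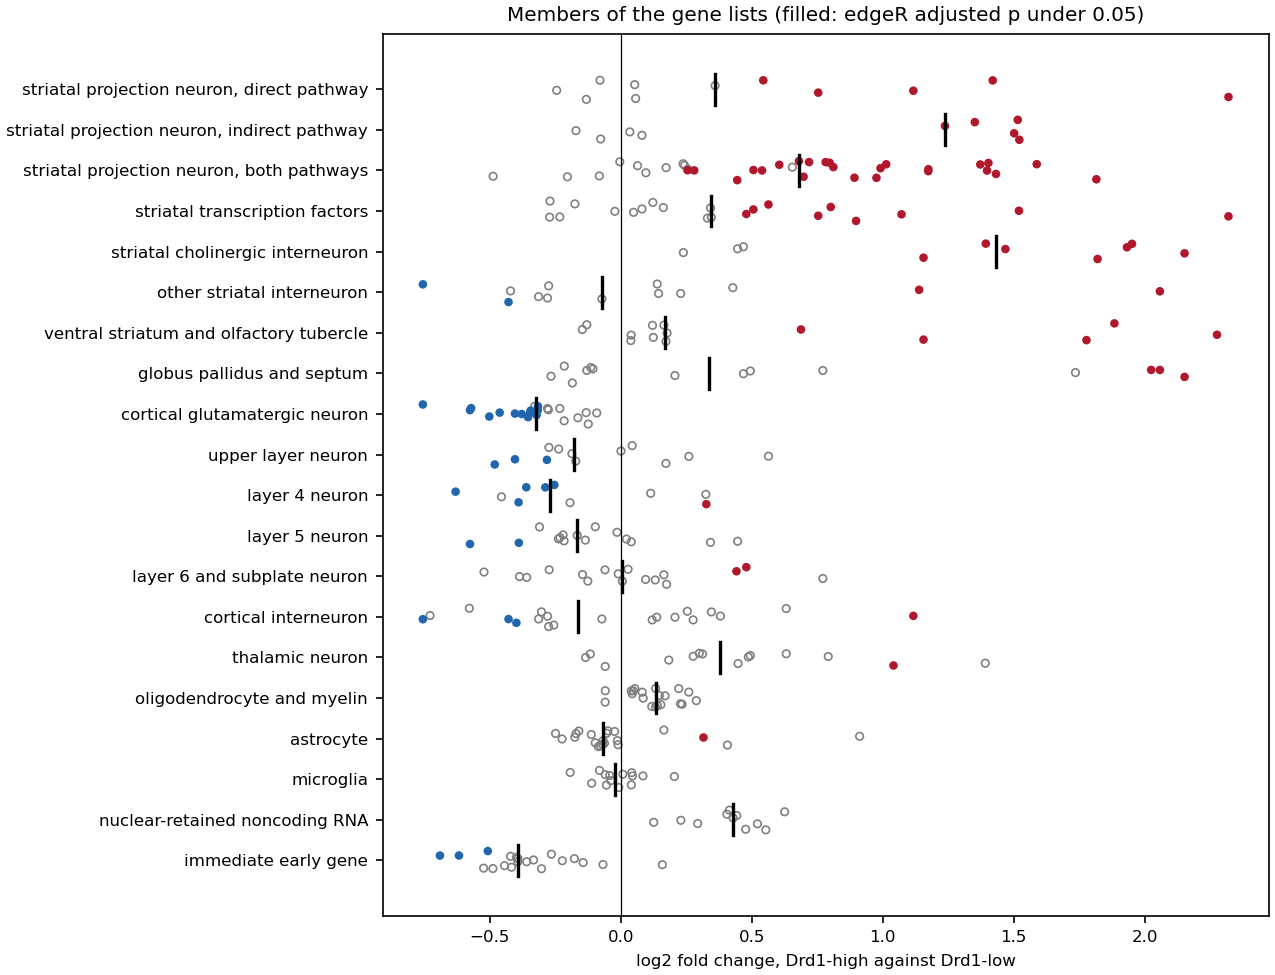
Log2 fold changes, Drd1-high against Drd1-low, of the tested members of 20 gene lists. Filled points passed edgeR's test at an adjusted p of 0.05, open points did not, and black bars are list medians. Spiny projection neuron and cholinergic lists lie to the right, the latter at a median of 1.43, other striatal interneuron genes lie on both sides of 0, and the 22 cortical glutamatergic genes all lie left of 0.

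Beyond the lists, the 12 higher genes with the smallest p included Ptprv, a receptor-type phosphatase, at 3.57 to 11.7 CPM against 0.377 to 3.06 CPM (4.34-fold). Serpina9, a serine protease inhibitor, was 3.14-fold higher, and Ccdc187 was 2.89-fold higher. The kinase gene Stk26 was 1.73-fold higher, Pde1c, a calmodulin-dependent phosphodiesterase, 1.72-fold and Tbc1d8 1.53-fold. A gene without a matched symbol, ENSMUSG00000118401, was 2.07-fold higher. None of these 7 overlapped between the groups. Across all genes, 133 had every Drd1-high library above every Drd1-low one (0.578%) and 90 the reverse (0.391%). Of the 12 lower genes with the smallest p, Sowahb fell by 0.55, Kcns1, a potassium channel subunit, by 0.48 and Satb1, a chromatin organizer, by 0.38 on the log2 scale, each without overlap. Tuba8 and Camk2n2, an inhibitor of the kinase CaMKII, fell by 0.51 and 0.54.

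A fit with log2 Drd1 as a continuous term showed how steeply other transcripts followed it over the same 15 libraries. In it 324 genes rose with Drd1 (1.41%) and 277 fell (1.2%). A gene in fixed proportion to Drd1 would change by 1 on the log2 scale per doubling of Drd1. Isl1 changed by 1.87, Chat by 1.54, Adora2a by 1.35, Drd2 by 1.32, Rgs9 by 1.18, and Penk and Gpr6 changed by 1.07 and 1.09, each above 1 by more than its SE. Pde10a (0.93) and Tac1 (0.89) were below 1, and Ppp1r1b (0.65), Adcy5 (0.55), Pdyn (0.45) and Gnal (0.43) rose less steeply. Tbr1 changed by -0.25 and Cck by -0.54. These slopes describe the libraries, since Drd1 is one of the values that defined the split.

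**Figure D5:**
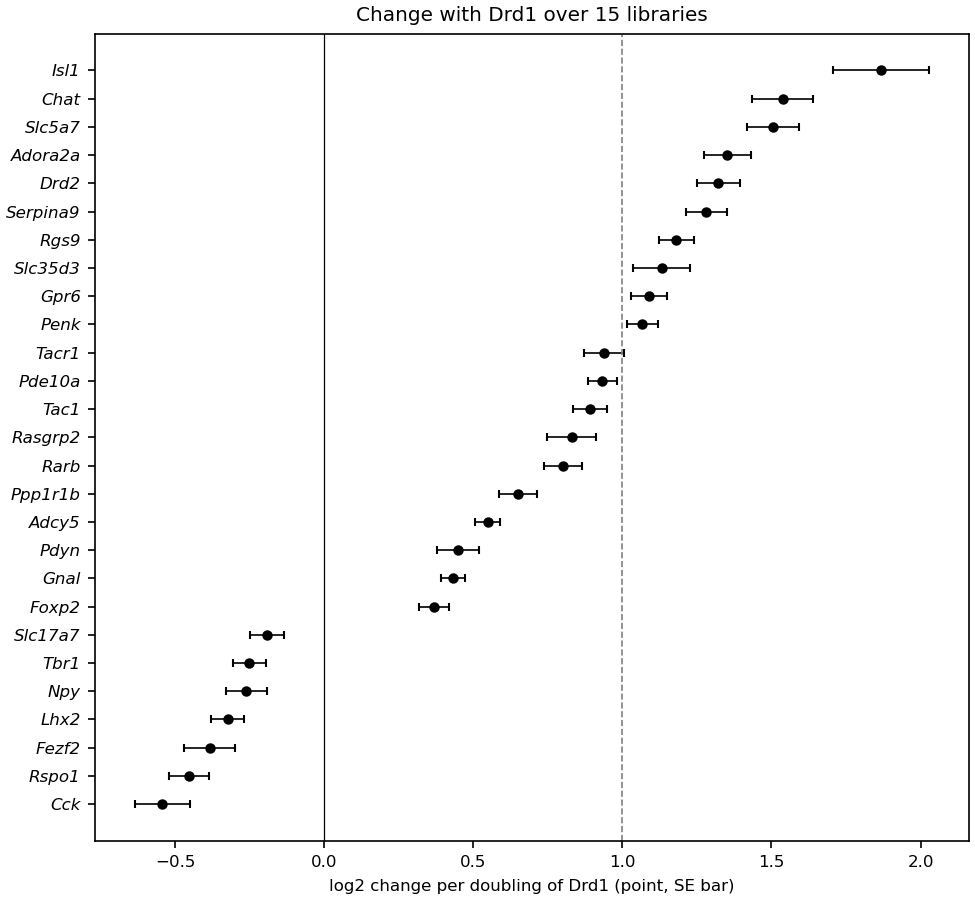
Log2 change of 27 genes per doubling of Drd1 over 15 libraries, with bars for the SE. The dashed line at 1 marks strict proportion to Drd1. Isl1, Chat, Adora2a, Drd2, Rgs9, Gpr6 and Penk are among the genes right of it. Tbr1 and Cck lie left of 0, and Foxp2, expressed in cortical layer 6 as well, lies right of 0.

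Glial, vascular and meningeal genes were called at a share near that over all genes, 2 of 98 against 3.14%. None of 20 oligodendrocyte, 14 microglial, 15 endothelial and mural or 14 meningeal genes passed edgeR's test. At an unadjusted p under 0.05 there were 3, 0, 1 and 1 such genes, DESeq2 called 0, 0, 0 and 1, and limma-voom called 0, 0, 1 and 0. One of 21 astrocyte genes, Slc4a4, and 1 of 14 oligodendrocyte precursor genes, Lhfpl3, were higher. Slc4a4 was lost in 13 of the 15 fits without a library and Lhfpl3 in 11. The 20 oligodendrocyte genes summed to between 3131 and 4510 CPM in Drd1-high and between 2611 and 3826 CPM in Drd1-low libraries, with a median log2 difference of 0.13. Of these 20 genes 18 lay above 0, while 17 of 21 astrocyte and 12 of 14 meningeal genes lay below. The numbers below 0 were 8 of 14 microglial, 8 of 15 endothelial and mural and 6 of 14 oligodendrocyte precursor genes. The ventricular linings gave no call among 13 choroid plexus, 11 ependymal and 15 subventricular zone genes by edgeR, DESeq2 or limma-voom, with 1, 0 and 3 at an unadjusted p under 0.05. Ttr, the main choroid plexus transcript, was at 240 CPM in sham 2 and between 2.24 and 10.7 CPM in the other Drd1-high libraries, while 4 Drd1-low libraries stood between 22.1 and 249 CPM. Without the 3 libraries highest in Ttr, 124 genes were higher and 30 lower. The part of these tissues in the differences was not tested further.

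Immediate early genes, which neurons switch on with activity, also moved with the running number in the sample descriptions. Their level, the mean log2 CPM of the list, ran from 4.80 to 5.25 in libraries 1 to 6 and from 5.25 to 5.64 in libraries 7 to 15. Of the first 6 only iTBS 1 was Drd1-low, and it had the lowest level. Of the last 9 only cTBS 5 was Drd1-high, at 5.41. Of 20 immediate early genes 3 were lower, none was higher, and 19 lay below 0 with a median log2 difference of -0.39. Ier5 ran from 52.7 to 66.0 CPM against 57.9 to 92.3 CPM and fell by 0.51 on the log2 scale (edgeR adjusted p = 0.00501). Egr4, at medians of 18.4 and 27.7 CPM, fell by 0.69 (adjusted p = 0.0281), and was lost without iTBS 2, sham 1, sham 2 or cTBS 3 (adjusted p = 0.0751, 0.0733, 0.0581 and 0.0521). Ier2 only just passed (adjusted p = 0.0498), and was lost in 11 of the 15 fits without a library. With the running number as a covariate the list median was -0.13, and Ier5 passed (adjusted p = 0.0342) but Egr4 (0.163) and Ier2 (0.140) did not. With the replicate block the median was 0.00543. Fos, Arc, Npas4 and Egr1 did not pass the test. Of 17 glucocorticoid-induced genes only Zbtb16 was called, and it was lower, with the call lost without iTBS 2 or sham 2 (adjusted p = 0.0914 and 0.0520).

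Some measures of the libraries moved with the split. Total counts ran from 25130470 to 43082674 in Drd1-high and from 15385070 to 47807723 in Drd1-low libraries (two-sided exact permutation within stimulation groups, p = 0.974 and adjusted p = 0.974 over 3 measures, where 0.002 is the smallest p possible). The number of genes detected had a median of 34374 against 33567 (exact permutation p = 0.01, adjusted p = 0.03). The running number in the sample descriptions had a median of 4.5 against 10 (exact permutation p = 0.05, adjusted p = 0.075). With that number as a covariate, 163 genes were higher and 89 lower. The 11 nuclear-retained noncoding RNAs all lay above 0 with a median log2 difference of 0.43, none passed by edgeR, DESeq2 or limma-voom (2 at an unadjusted p under 0.05), and Malat1 ran from 1521 to 9492 CPM against 985 to 10000 CPM. With their level as a covariate 354 genes were higher and 250 lower, and 29 of the 35 shared spiny neuron genes were higher. Ribosomal protein genes and nuclear-encoded oxidative phosphorylation genes gave no call by edgeR among 42 and 30, at medians of -0.08 and -0.09. While 55.3% of all genes tested lay above 0, 39 and 28 of these genes lay below it. At an unadjusted p under 0.05 there were 5 and 8 of them, DESeq2 called 0 and 1, and limma-voom called 2 and 3.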

How the data were processed

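Total RNA from cortex was sequenced after ribosomal RNA depletion with a stranded kit, per the labels' protocols. The authors deposited raw counts per Ensembl gene for 15 libraries, with no normalization, and a table of variance-stabilized values, close to log2, used only in 1 alternative. The submitters' processing notes name fastp, STAR, DESeq2 and the build GRCm39 (mm39). What each did, its version, how reads were counted, with which annotation and with or without strand is not given in the sources used here, so overlapping, antisense and near-identical genes are uncertain. Symbols were matched by Ensembl identifier for 52073 of 56748 identifiers, which held 97.7% of the counts.

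CPM was the count over the library's total. Groups were compared with edgeR 4.0.16 under R 4.3.3 by quasi-likelihood, with TMM scaling (factors 0.943 to 1.04), the default expression filter by stimulation group, and stimulation group as a covariate. The filter kept 22998 genes with 99.9% of the counts. Drd1 was left out of all counts. The SE of a log2 fold change was its size over the square root of F. The biological coefficient of variation was 17.3%. Benjamini-Hochberg adjustment ran over all genes. DESeq2 1.42.0 and limma 3.58.1 were alternatives. The procedure was tested on simulated counts with known changes.

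The members of the split and the 35 gene lists (542 of 546 symbols matched) were chosen with earlier results of these data known. Lists share members and are described by counts and medians, without a test. Genes were named by rule, namely the 12 higher and 12 lower with the smallest p among called genes with a mean of at least 1 CPM, up to 3 members of each list with the smallest p, and 22 genes fixed by name. Some genes the rule takes are left out of the text. Members that passed the test are otherwise named only to complete a list's count, after their values were seen. Lists not described in the results, beyond the hippocampal sums, were claustrum (1 of 12 higher, 0 lower), hippocampal (0 higher and 1 of 14 lower), striosome and matrix (4 of 16 higher, 0 lower) and dopamine neuron (0 of 5 by edgeR, 2 at an unadjusted p under 0.05, 1 each by DESeq2 and limma-voom).

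The replicate numbers in the titles were not treated as pairs in the main comparison. Correlations of same-numbered libraries' deviations from their group means ran from -0.56 to 0.72. These values do not settle whether libraries of the same number belong together.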

Additional observations from a re-analysis of the deposited data

Results flagged for a closer look

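Within the 6 Drd1-high libraries, 6 of the genes named by fixed choice had 1 library far above the other 5, by the gap to the nearest library relative to the whole range. In cTBS 2 these were Drd3 at 2.03 CPM, Tac1 at 46.4 CPM and Pdyn at 44.9 CPM. In iTBS 2 they were Pde10a at 647 CPM and Rgs9 at 140 CPM. In sham 2 it was Ttr at 240 CPM. None was found in the 9 Drd1-low libraries. With 44 groups of values examined, chance would flag about 1 in 20 of these groups. Genes measured in the same library are not independent, and whether chance gave these 6 was not tested.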

How the results depend on the processing

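The number of calls depended on the setting. Against 316 higher and 406 lower genes, DESeq2 gave 516 and 871, limma-voom with quality weights 1292 and 1212, no filter 655 and 549, and log2 library total as a covariate 1044 and 1022. Fewer came with the running library number as a covariate (163 and 89), with a split on Ppp1r1b (60 and 5), without the 3 libraries highest in Ttr (124 and 30) and, chosen after seeing the data, without sham 2 and iTBS 2 (2 and 0). Lower genes alone changed by over 1.5 times without the stimulation covariate (189), with the nuclear RNA level (250), with a split at the median (66) and, chosen after seeing the data, without the 2 libraries nearest the threshold (118). Leaving out 1 library gave 95 to 513 higher and 64 to 839 lower genes. Lower genes also fell by over 1.5 times without sham 1 (166), sham 2 (86), sham 4 (186), cTBS 2 (223), cTBS 3 (263), iTBS 1 (226) or iTBS 5 (225), and higher genes without cTBS 3 (208) or sham 2 (138). The cause of these changes was not tested.

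With the replicate block, 0 genes were higher and 0 lower (edgeR, smallest adjusted p = 0.0581, 6806 genes at an unadjusted p under 0.05); 8 of the 316 higher genes and none of the 406 lower ones changed sign. Every library numbered 2 was Drd1-high and every one numbered 3 or 4 Drd1-low, so the block compares within numbers 1 and 5 only. Of 15 libraries, 5 correlated best with a library of their own number. Among lists with a median at least 0.1 from 0, the block turned the median log2 change to -0.125 for the ventral striatal list, -0.0859 for globus pallidus and septum, -0.0151 for thalamus, -0.0267 for oligodendrocytes, 0.00543 for immediate early genes and -0.0827 for dopamine and cAMP signalling. Among the genes named by rule and called, it turned Dlk1 to -0.117 and Lhfpl3 to -0.0484.

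Of 23 lists with a median at least 0.1 from 0, 9 changed sign in some alternative, the 6 above and 3 more. Besides the block, signs changed for the medians of globus pallidus and septum (-0.0823) and ependyma (-0.0811) at a mean of at least 1 CPM, and of hippocampus, which ran from -0.0135 without cTBS 5 to 0.208. The choroid plexus median, -0.28 in the main comparison, was 0.0637 with the nuclear RNA level, 0.394 per doubling of Drd1, 0.673 split at the median, 0.941 split on Ppp1r1b, 0.0764 without the Ttr libraries, 0.460 without the 2 nearest the threshold, and from -0.895 to 0.178 leaving out 1 library. Of the 12 lists nearer 0, 10 changed sign, under the block among others layer 6 (-0.218), opioid and neuropeptide (-0.200) and endothelial genes (0.201). Low levels limit the choroid plexus and ependymal lists and Drd3.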

Other observations

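Among the genes called outside the lists, both mitochondrial ribosomal RNAs were higher in Drd1-high libraries. They were picked out after their values were seen. mt-Rnr1 ran from 628 to 1112 CPM (median 686) against 239 to 733 CPM (median 422), with a log2 difference of 0.77 ± 0.17 (SE, edgeR adjusted p = 0.0236). mt-Rnr2 ran from 696 to 1155 CPM (median 733) against 266 to 748 CPM (median 510), with a log2 difference of 0.75 ± 0.15 (SE, edgeR adjusted p = 0.0154). The groups overlapped for both. Ribosomal RNA was depleted before sequencing, and the part of depletion in these levels was not tested.

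Pseudogenes made up 61 of the 406 lower genes, 8 of the 316 higher genes and 9.77% of all genes tested. Reads of a pseudogene can come from the gene it copies, and how the counting treated such reads is not given in the sources used here.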
